A study of Mus musculus with 15 samples.

Results

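The 36 genes described here are mouse genes known from endothelial cells, the cells that line blood and lymph vessels. They were found by gene symbol in the deposited count table, which holds 48440 genes. The list itself was chosen with earlier results of these data known. The libraries came from primary lung fibroblasts of C57BL/6 mice, with 3 strains (cell cultures) established from Atm+/+ mice and 3 from Atm-/- mice, which lack the DNA damage kinase ATM. The series formed 5 groups of 3 libraries: Atm+/+ at passage 2, Atm-/- at passage 2, Atm+/+ at passage 8, Atm-/- at passage 8, and irradiated Atm+/+ cells labelled passage 2 that received 10 Gy of X-rays and were harvested 10 days later to provide stress-induced senescent cells. All cells grew in 15% fetal bovine serum at 3% oxygen, and total RNA was sequenced. The spread within a group was therefore the spread between 3 strains. The labels used here say neither how the fibroblasts were isolated nor whether a strain number joins libraries across passages, and the irradiated cells have no sham-irradiated group kept for the same 10 days.

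Endothelial cells hold to each other through junction proteins such as VE-cadherin (Cdh5), claudin 5 (Cldn5) and PECAM1, and they sense growth signals through the VEGF receptors (Kdr, Flt1, Flt4) and the TIE receptors (Tek, Tie1). Transcription factors of the ETS family, such as ERG, and of the SOX family, such as SOX7, SOX17 and SOX18, maintain their gene programme. The lung is rich in capillaries, and some members of the list mark capillary endothelium there, such as Gpihbp1 and Plvap. Of the 36 genes, 18 are largely restricted to endothelium and 18 are also well known from other cell types. Eng, for example, is carried by fibroblasts and macrophages, and Flt1 and Pecam1 by monocytes.

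The list was high at passage 2, lower in irradiated cells and lowest at passage 8. At Atm+/+ passage 2, 32 of the 36 genes had a group mean of at least 1 TPM (a read count corrected for gene length and library size). At Atm-/- passage 2, 31 genes reached that level, against 27 in irradiated cells, 14 at Atm-/- passage 8 and 7 at Atm+/+ passage 8. The median gene had a group mean of 11.5 TPM at Atm+/+ passage 2, 10.3 TPM at Atm-/- passage 2, 4.66 TPM after irradiation, 0.181 TPM at Atm+/+ passage 8 and 0.453 TPM at Atm-/- passage 8. The 18 largely endothelial genes summed to 552, 858 and 363 TPM in Atm+/+ passage 2 replicates 1 to 3, the order in which values of a group are given throughout. They summed to 353, 455 and 542 TPM at Atm-/- passage 2, 224, 313 and 150.4 TPM after irradiation, 55.9, 61.6 and 60.5 TPM at Atm+/+ passage 8 and 36.3, 46.9 and 40 TPM at Atm-/- passage 8. These sums did not overlap between passage 2 and passage 8, or between irradiated and passage 8 cells. Ecscr, 1 of the 18 genes, weighed heavily at passage 8. Its mean was 51.9 TPM of a mean sum of 59.4 TPM in Atm+/+ and 21.9 of 41.1 TPM in Atm-/- cells. The 36 genes without Ecscr and Eng had the reverse order of genotypes there, with 24.5 to 27.8 TPM in Atm+/+ and 39.5 to 55.2 TPM in Atm-/- cells. In bulk RNA, fewer cells of a type and less RNA per cell cannot be told apart.

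**Figure D1:**
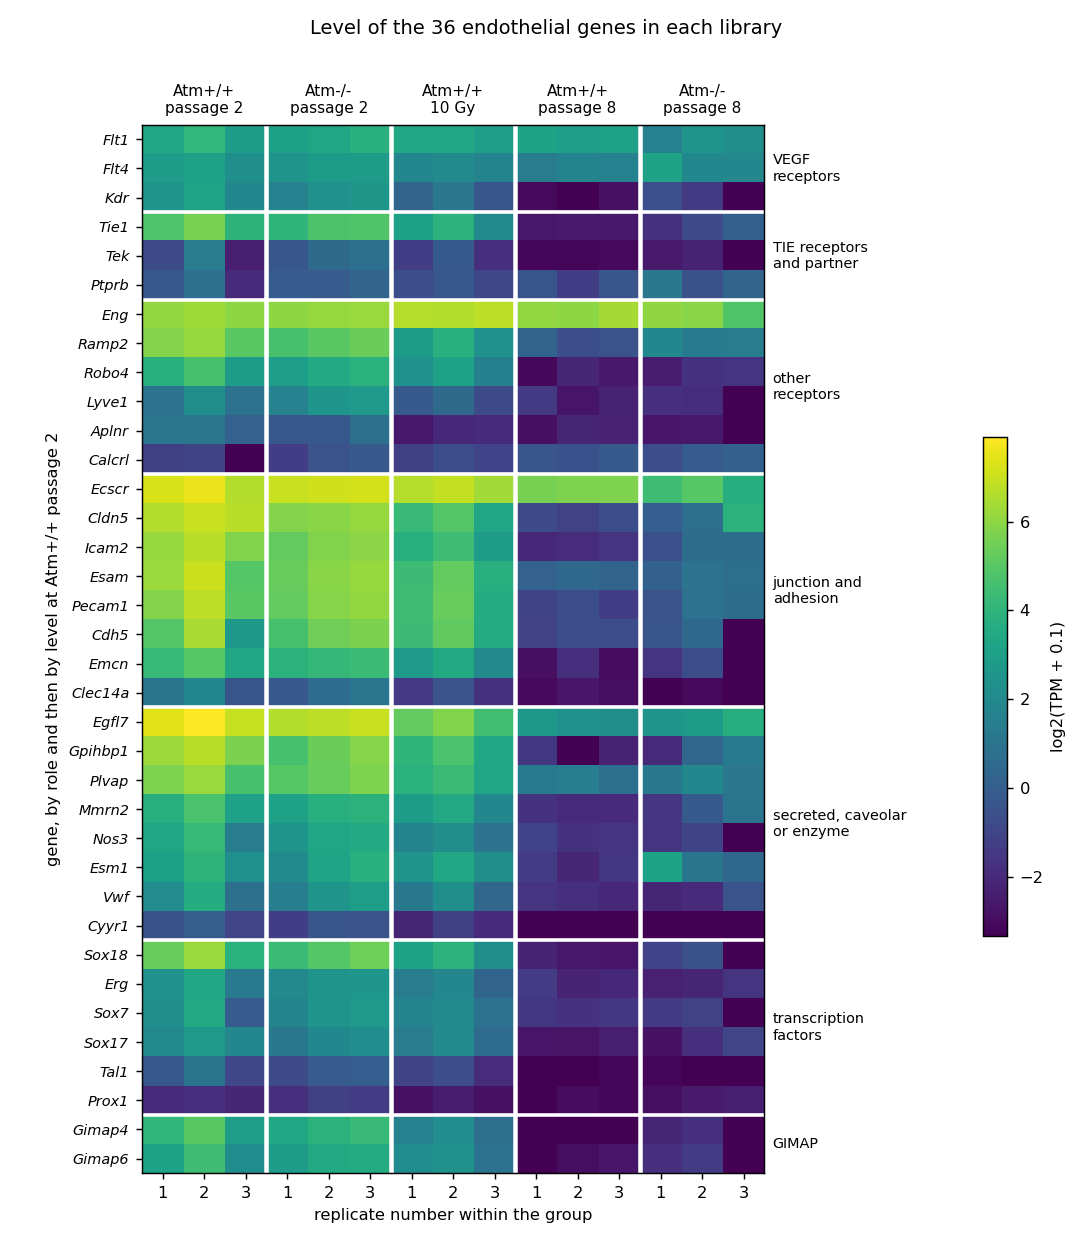
Level of each of the 36 genes (rows, by role) in each of the 15 libraries (columns, replicates 1 to 3 of 5 groups), as log2(TPM + 0.1) by colour. In Atm+/+ cells the group means drop from passage 2 through irradiated cells to passage 8, except for Eng and Calcrl. The group mean reaches 1 TPM for 32 genes at Atm+/+ passage 2 and for 7 at Atm+/+ passage 8.

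Library totals ranged from 13645592 to 39210772 counts. Markers of the labelled cell type were present throughout: the 12 fibroblast genes summed to 5826 to 13049 TPM in the groups other than Atm-/- passage 8 and to 3434 to 5320 TPM there, with none at 0 in any library. Lists of markers of other cells differed in how they moved. The 16 macrophage genes summed to 2890 to 3416 TPM at Atm+/+ passage 2, 1245 to 1911 TPM at Atm-/- passage 2, 1955 to 3432 TPM after irradiation, 69.8 to 114.7 TPM at Atm+/+ passage 8 and 19.5 to 60.4 TPM at Atm-/- passage 8, although Ptprc, their shared leukocyte marker, lay between 0 and 1.47 TPM. The 10 lymphocyte genes never summed to more than 4.47 TPM. The 9 platelet and megakaryocyte genes summed to 597.0 to 1201 TPM at Atm+/+ passage 2, 243.6 to 459.5 TPM at Atm-/- passage 2, 176.6 to 430.8 TPM after irradiation and 9.34 to 14.2 TPM at passage 8. Nearly all of this was Pf4, with 819.9, 576 and 1180.4 TPM at Atm+/+ passage 2, and 2 of 6 tested genes of that list fell with passage in either genotype. Smooth muscle and pericyte genes (14) summed to 4336 to 5697 TPM at Atm+/+ passage 2, 9674 to 11522 TPM at Atm-/- passage 2, 21947 to 24898 TPM after irradiation, 13761 to 14958 TPM at Atm+/+ passage 8 and 5123 to 8054 TPM at Atm-/- passage 8. With passage in Atm+/+ cells 6 of them rose and 7 fell, the contractile genes Lmod1 and Myh11 by log2 fold changes of 2.52 and 2.76 and the pericyte genes Rgs5 and Kcnj8 by -7.19 and -2.81. In Atm-/- cells 7 of the 14 fell with passage and 0 rose. Of all genes tested, 13.5% fell and 9.8% rose with passage in Atm+/+ cells, and 8.25% fell and 4.76% rose in Atm-/- cells. The 9 mesothelial genes summed to 1.83 to 5.25 TPM at Atm+/+ passage 2 and 11.0 to 11.4 TPM at passage 8. A pair of libraries stood apart, Atm+/+ passage 2 replicate 3 and Atm-/- passage 8 replicate 3, with 17233 and 15037 genes detected at equal depth against at least 20113 in each of the others. Counts of called genes are therefore also given from a fit of the other 13 libraries.

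**Figure D2:**
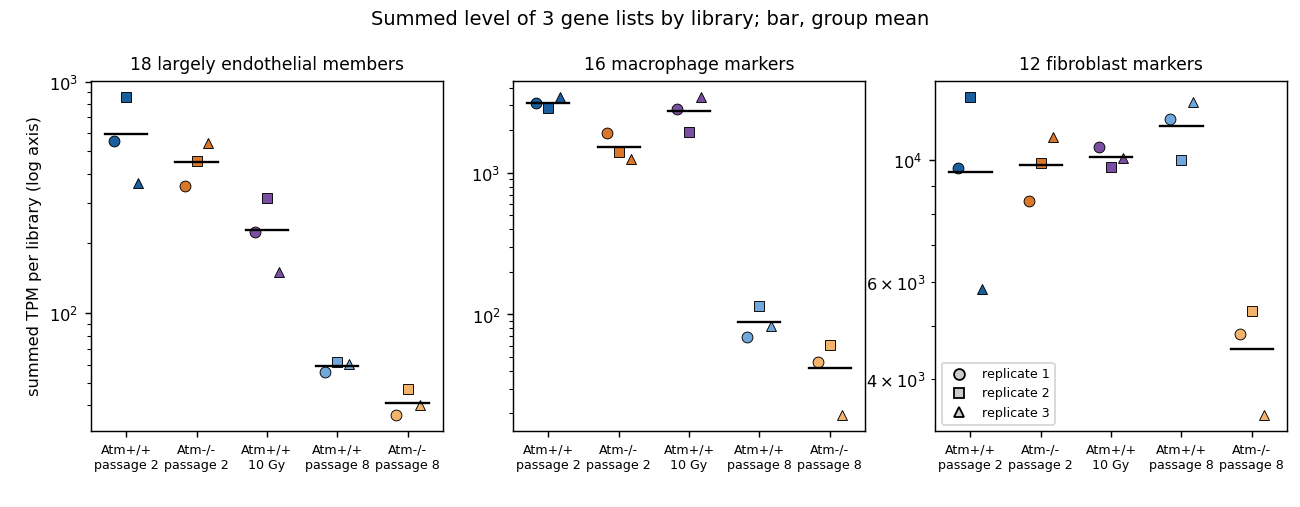
Summed TPM per library (log axis) of the 18 largely endothelial genes, 16 macrophage markers and 12 fibroblast markers, by group; symbols are replicates and bars are group means. Endothelial and macrophage sums were both lowest at passage 8, while irradiated cells kept macrophage sums of 1955 to 3432 TPM and endothelial sums of 150.4 to 312.9 TPM. At Atm+/+ passage 8 most of the endothelial sum was Ecscr.

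Passage was compared first, within each genotype. In Atm+/+ cells, 32 of the 36 genes fell from passage 2 to passage 8 and none rose (edgeR quasi-likelihood test, Benjamini-Hochberg adjusted p under 0.05), where 13.5% of all 18167 genes tested fell and 9.8% rose. The 4 genes that did not pass were Flt1, Eng, Calcrl and Ptprb, each of them also known from other cell types. In Atm-/- cells 29 genes fell and none rose, where 8.25% of all genes fell and 4.76% rose. The 7 that did not pass there were the same 4 with Flt4, Prox1 and Esm1. The median log2 fold change of the 36 genes was -6.11 in Atm+/+ and -4.21 in Atm-/- cells, against 0 and -0.08 over all genes tested. With genes that had no count at passage 8 set to the fold that 3 counts per library would give, those medians were -5.94 and -4.02. All 36 genes passed the filter on low counts, but 14 had under 10 counts in each of the Atm+/+ passage 8 libraries and so passed through the groups in which they were higher. Without the pair of libraries that stood apart, 33 genes fell in Atm+/+ and 31 in Atm-/- cells, the added ones being Flt1 in both and Prox1 in Atm-/- cells. In that fit 40.1% and 27.2% of all genes were called in either direction, against 23.3% and 13% with 15 libraries.

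The VEGF receptors did not move alike. Kdr (VEGFR2, the main signalling receptor for VEGF-A; chr5:75932827-75978458, minus strand, GRCm38) had 5.55, 9.42 and 3.65 TPM at Atm+/+ passage 2, 0.0235, 0 and 0.0413 TPM at passage 8 and 1.14, 2.12 and 0.695 TPM after irradiation. Its Atm-/- levels were 3.02, 5.07 and 6.07 TPM at passage 2 and 0.572, 0.27 and 0 TPM at passage 8. Passage 8 rested on 3, 0 and 5 counts in Atm+/+ and 78, 32 and 0 counts in Atm-/- libraries, and the 3 passage 2 libraries of either genotype lay above every passage 8 library. Flt4 (VEGFR3, the receptor for VEGF-C and VEGF-D) had 7.06, 8.39 and 4.77 TPM at Atm+/+ passage 2, 2.64, 3.17 and 2.99 TPM at passage 8 and 3.42, 3.99 and 3.11 TPM after irradiation. In Atm-/- cells it had 5.53, 6.85 and 7.09 TPM at passage 2 and 8.74, 3.72 and 3.61 TPM at passage 8, where replicate 1 was above all Atm-/- passage 2 libraries. Flt1 (VEGFR1, which binds VEGF-A and also exists as a soluble decoy) had 10.1, 17.1 and 7.39 TPM, 8.99, 7.71 and 8.4 TPM at passage 8 and 10.5, 10.7 and 7.44 TPM after irradiation. Its Atm-/- values were 7.88, 10 and 13.8 TPM and, at passage 8, 2.91, 5.44 and 4.74 TPM. The log2 fold change from passage 2 to 8 in Atm+/+ cells was -8.22 ± 0.97 (SE, n = 3 per group) for Kdr, -1.39 ± 0.25 for Flt4 and -0.62 ± 0.28 for Flt1, with edgeR adjusted p of 5.05e-05, 0.00154 and 0.128.

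Of the TIE receptors, Tie1 (an orphan partner of TEK) was the more abundant, with 28, 50.1 and 15.4 TPM at Atm+/+ passage 2, 0.0657, 0.0775 and 0.0694 TPM at passage 8 and 8.12, 14.9 and 3.99 TPM after irradiation. Its Atm-/- values were 16.1, 26.8 and 29 TPM at passage 2 and 0.205, 0.519 and 1.03 TPM at passage 8. Groups of the 2 passages did not overlap in either genotype, and the Atm+/+ passage 2 mean was 439.5 times the passage 8 mean. Tek (TIE2, the angiopoietin receptor) was far lower per length, with 0.488, 2.5 and 0.0952 TPM at Atm+/+ passage 2, 0.324, 0.794 and 0.195 TPM after irradiation and 0.708, 1.36 and 1.64 TPM at Atm-/- passage 2. At passage 8 its counts were 1, 1 and 2 in Atm+/+ and 8, 11 and 0 in Atm-/- libraries. Both receptors fell with passage in both genotypes, Tie1 by edgeR adjusted p of 5.24e-06 and 0.000162 and Tek by 0.0021 and 0.0169. Ptprb (VE-PTP, the phosphatase that restrains TEK) did not follow them. It had 0.749, 1.6 and 0.163 TPM at Atm+/+ passage 2, 0.646, 0.308 and 0.687 TPM at passage 8, 0.551, 0.739 and 0.435 TPM after irradiation, 0.834, 0.846 and 1.17 TPM at Atm-/- passage 2 and 2.14, 0.583 and 1.15 TPM at Atm-/- passage 8. Its groups overlapped across passage in Atm+/+ cells, and its highest library of all was Atm-/- passage 8 replicate 1.

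The junction and adhesion genes all fell with passage in both genotypes, all 8 of 8. Cdh5 (VE-cadherin, the adhesion molecule of endothelial adherens junctions; chr8:104101625-104144511, plus strand) had 30, 86.4 and 6.21 TPM at Atm+/+ passage 2, 0.36, 0.547 and 0.527 TPM at passage 8 and 20.6, 35.5 and 11.9 TPM after irradiation. Its Atm-/- values were 24.6, 44.4 and 51.7 TPM at passage 2 and 0.686, 1.26 and 0 TPM at passage 8. Each passage 2 library exceeded each passage 8 library, although Atm+/+ passage 2 replicate 3 was far below the other libraries of its group. Pecam1 (CD31, an adhesion molecule of endothelial junctions, platelets and leukocytes; chr11:106654217-106750628, minus strand) had 56.4, 109 and 32.2 TPM at Atm+/+ passage 2, 0.391, 0.556 and 0.313 TPM at passage 8 and 21.4, 39.4 and 12.1 TPM after irradiation. In Atm-/- cells it had 37.1, 57.7 and 68.3 TPM and then 0.632, 1.7 and 1.45 TPM. The mean level of Pecam1 at passage 2 was 157 times that at passage 8 in Atm+/+ and 43.2 times in Atm-/- cells, and for Cdh5 it was 85.5 and 61.9 times. The edgeR log2 fold change for Pecam1 was -7.41 ± 0.60 (SE, n = 3 per group) in Atm+/+ and -5.07 ± 0.54 in Atm-/- cells, with adjusted p of 2.93e-06 and 4.05e-05.

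Cldn5 (claudin 5, the main endothelial tight junction claudin; chr16:18776847-18778262, plus strand, 1 exon) was the third most abundant member at Atm+/+ passage 2. It had 97.6, 124 and 108 TPM there, 0.491, 0.347 and 0.553 TPM at passage 8 and 19.5, 29.7 and 9.74 TPM after irradiation. Its Atm-/- levels were 56.4, 59.4 and 70.6 TPM at passage 2 and 0.921, 1.55 and 14.7 TPM at passage 8, where replicate 3 stood above the others. Icam2, an adhesion molecule that binds leukocyte integrins, had 72.8, 109 and 54 TPM at Atm+/+ passage 2, 0.145, 0.171 and 0.229 TPM at passage 8, 13.5, 21.4 and 7.17 TPM after irradiation, 36.5, 54.4 and 61.5 TPM at Atm-/- passage 2 and 0.577, 1.48 and 1.46 TPM at Atm-/- passage 8. Its passage 2 mean was 432 times the passage 8 mean in Atm+/+ and 43.4 times in Atm-/- cells. Esam, a tight junction adhesion molecule, had 74.2, 127 and 30.8 TPM at Atm+/+ passage 2, 1.07, 1.29 and 1.1 TPM at passage 8, 21, 36.9 and 13 TPM after irradiation, 39, 60.1 and 72.7 TPM at Atm-/- passage 2 and 1.03, 1.82 and 1.57 TPM at Atm-/- passage 8. Emcn (endomucin, a sialomucin of capillaries and veins) had 18.4, 31.8 and 10.7 TPM at Atm+/+ passage 2, 0.0395, 0.186 and 0.0278 TPM at passage 8, 6.62, 11.2 and 3.75 TPM after irradiation, 14.9, 17.7 and 19.9 TPM at Atm-/- passage 2 and 0.235, 0.539 and 0 TPM at Atm-/- passage 8. Esam and Emcn both fell below every passage 2 and irradiated library at passage 8. Clec14a, a C-type lectin-like surface protein, was the lowest of the group, with 1.87, 3.58 and 0.667 TPM at Atm+/+ passage 2, 0.266, 0.625 and 0.21 TPM after irradiation and 0.779, 1.42 and 2.03 TPM at Atm-/- passage 2. At passage 8 it had 2, 5 and 3 counts in Atm+/+ and 0, 2 and 0 counts in Atm-/- libraries.

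Ecscr, an endothelial surface protein that modulates chemotaxis and VEGF signalling, was the exception in size. Its levels were 149.9, 192 and 99.2 TPM at Atm+/+ passage 2, 48.5, 53.6 and 53.7 TPM at passage 8 and 102, 118 and 80.3 TPM after irradiation. The Atm-/- libraries had 126, 136 and 145 TPM at passage 2 and 21.2, 31.6 and 12.8 TPM at passage 8. Its Atm+/+ passage 2 mean was 2.83 times the passage 8 mean, against 85.5 times for Cdh5, and Ecscr held 34.8% of the summed mean of the 36 genes at Atm+/+ passage 8. Eng held a further 48.0%. Without this pair, the other 34 genes summed to 566.8 to 1439 TPM at Atm+/+ passage 2, 501.2 to 848.4 TPM at Atm-/- passage 2, 148.2 to 401.0 TPM after irradiation, 24.5 to 27.8 TPM at Atm+/+ passage 8 and 39.5 to 55.2 TPM at Atm-/- passage 8. The groups of the passages stayed apart in that sum too.

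The other receptors split. Eng (endoglin, a co-receptor for BMP and TGF-beta ligands; chr2:32646595-32682669, plus strand) had 67.1, 79.1 and 63 TPM at Atm+/+ passage 2, 67.5, 63 and 84.2 TPM at passage 8 and 101, 98.8 and 109 TPM after irradiation. Its Atm-/- values were 63.6, 71 and 73.8 TPM at passage 2 and 65.3, 59.5 and 28.7 TPM at passage 8. These ranges overlapped across passage, with a log2 fold change of -0.19 ± 0.15 (SE, n = 3 per group; edgeR adjusted p = 0.376) in Atm+/+ cells. Calcrl, the shared receptor for adrenomedullin and CGRP, was low in every group, with 0 to 1.00 TPM in the 15 libraries, and its Atm+/+ passage 2 libraries (0.338, 0.388 and 0 TPM) lay below those of passage 8 (0.674, 0.616 and 0.813 TPM) without passing the test (adjusted p = 0.188, edgeR). Ramp2, the protein that turns Calcrl into an adrenomedullin receptor, behaved differently. It had 56.9, 71.5 and 33.1 TPM at Atm+/+ passage 2, 1.13, 0.555 and 0.63 TPM at passage 8, 6.91, 13.7 and 4.99 TPM after irradiation, 24.7, 32.9 and 41.8 TPM at Atm-/- passage 2 and 3.68, 2.27 and 2.64 TPM at Atm-/- passage 8. It fell with passage in both genotypes, and 33.4% of its exonic bases are shared with Vps25 on the same strand, so its reads could have been counted for either gene.

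Robo4, a roundabout receptor that stabilises vessels, had 13.1, 24.9 and 7.11 TPM at Atm+/+ passage 2, 0.0187, 0.133 and 0.0692 TPM at passage 8, 5.15, 8.42 and 2.76 TPM after irradiation, 7.43, 11.5 and 14.4 TPM at Atm-/- passage 2 and 0.0878, 0.212 and 0.233 TPM at Atm-/- passage 8. Aplnr, the apelin receptor, had 2.01, 2.08 and 1.05 TPM at Atm+/+ passage 2, 0.0376, 0.133 and 0.106 TPM at passage 8, 0.0657, 0.139 and 0.159 TPM after irradiation, 0.722, 0.761 and 1.65 TPM at Atm-/- passage 2 and 0.0588, 0.0676 and 0 TPM at Atm-/- passage 8. Its irradiated libraries reached down into the Atm+/+ passage 8 range, as did those of Flt1, Flt4 and Ptprb. Lyve1, a hyaluronan receptor of lymphatic vessels that lung macrophages also carry, had 1.83, 4.69 and 1.76 TPM at Atm+/+ passage 2, 0.272, 0.0567 and 0.118 TPM at passage 8, 0.807, 1.36 and 0.499 TPM after irradiation, 3.06, 5.93 and 6.56 TPM at Atm-/- passage 2 and 0.195, 0.173 and 0 TPM at Atm-/- passage 8. Robo4, Aplnr and Lyve1 fell with passage in both genotypes.

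Genes for secreted, caveolar and enzymatic proteins of the vessel wall made up 8 members, and all fell with passage in Atm+/+ cells. Egfl7, a secreted protein of the endothelial matrix whose gene hosts Mir126a, was the most abundant member at Atm+/+ passage 2, with 168, 239.9 and 122 TPM. It had 6.26, 4.84 and 4.65 TPM at passage 8, 36.9, 54.7 and 21.7 TPM after irradiation, 96.5, 112 and 124 TPM at Atm-/- passage 2 and 5.64, 6.89 and 12.7 TPM at Atm-/- passage 8. Gpihbp1, which carries lipoprotein lipase to the capillary lumen, had 77.1, 108 and 50.9 TPM at Atm+/+ passage 2 and 0.253, 0 and 0.119 TPM at passage 8. Its passage 2 mean was 637 times the passage 8 mean, and its passage 8 counts were 9, 0 and 4. Gpihbp1 had 16, 26.4 and 10.1 TPM after irradiation, 24.6, 41.6 and 58.3 TPM at Atm-/- passage 2 and 0.158, 1.21 and 2.42 TPM at Atm-/- passage 8. Plvap, the protein of fenestral and caveolar diaphragms, had 52.8, 74.9 and 25.1 TPM at Atm+/+ passage 2, 2.4, 2.72 and 1.55 TPM at passage 8, 14.4, 20 and 9.84 TPM after irradiation, 32.1, 39 and 53.5 TPM at Atm-/- passage 2 and 2.23, 3.67 and 2.1 TPM at Atm-/- passage 8. No passage 8 library of either genotype reached an irradiated or passage 2 library for any of these 3 genes.

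Vwf (von Willebrand factor, stored in endothelial granules and platelets; chr6:125546774-125686679, plus strand) had 4.11, 12.1 and 1.67 TPM at Atm+/+ passage 2, 0.22, 0.192 and 0.144 TPM at passage 8 and 2.23, 4.75 and 1.22 TPM after irradiation. Its Atm-/- values were 2.68, 5.58 and 7.56 TPM and, at passage 8, 0.133, 0.164 and 0.643 TPM. The Atm+/+ passage 2 mean was 32.2 times the passage 8 mean, and the range within passage 2 was wide. Mmrn2 (multimerin 2, a matrix protein that binds VEGF-A) had 13.4, 26.2 and 8.44 TPM at Atm+/+ passage 2, 0.21, 0.151 and 0.16 TPM at passage 8, 6.99, 10.8 and 3.58 TPM after irradiation, 8.58, 13.2 and 14.9 TPM at Atm-/- passage 2 and 0.241, 0.805 and 1.9 TPM at Atm-/- passage 8. Nos3, the endothelial nitric oxide synthase, had 9.47, 18.5 and 2.49 TPM at Atm+/+ passage 2, 0.381, 0.212 and 0.225 TPM at passage 8, 3.13, 4.52 and 1.82 TPM after irradiation, 5.53, 9.74 and 11.5 TPM at Atm-/- passage 2 and 0.221, 0.399 and 0 TPM at Atm-/- passage 8. Part of the Nos3 exons is shared with the antisense gene Gm15587 (25.2% of its exonic bases), and without strand the reads of the pair cannot be told apart. Esm1 (endocan, a proteoglycan of endothelial tip cells) had 7.91, 15.6 and 4.86 TPM at Atm+/+ passage 2, 0.287, 0.13 and 0.257 TPM at passage 8, 5.54, 10.7 and 4.64 TPM after irradiation, 3.97, 9.44 and 13.9 TPM at Atm-/- passage 2 and 8.98, 1.95 and 1.23 TPM at Atm-/- passage 8. Atm-/- passage 8 replicate 1 had an Esm1 level inside the passage 2 range, and the passage change in Atm-/- cells did not pass the test (log2 fold change -0.88 ± 0.60 SE, edgeR adjusted p = 0.375). Cyyr1, a membrane protein of little known function, had 72, 108 and 41 counts at Atm+/+ passage 2, 14, 40 and 16 counts after irradiation, 38, 80 and 74 counts at Atm-/- passage 2 and 0 counts in the 6 passage 8 libraries. It was at least 27.0-fold lower at passage 8 in Atm+/+ and at least 13.5-fold lower in Atm-/- cells, counting 3 reads per library as the limit of detection.

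The transcription factors fell with the surface proteins. Sox18, a SOX factor of arterial and lymphatic development, had 39.2, 74.9 and 14.3 TPM at Atm+/+ passage 2, 0.114, 0.0675 and 0.0605 TPM at passage 8, 9.07, 14.7 and 4.65 TPM after irradiation, 20.2, 30.5 and 43.5 TPM at Atm-/- passage 2 and 0.376, 0.586 and 0 TPM at Atm-/- passage 8. Its passage 2 mean was 529.9 times the passage 8 mean in Atm+/+ cells. Sox7, of the same subfamily, had 4.7, 10.8 and 0.873 TPM at Atm+/+ passage 2, 0.253, 0.199 and 0.252 TPM at passage 8, 3.2, 3.94 and 1.8 TPM after irradiation, 3.25, 5.53 and 6.38 TPM at Atm-/- passage 2 and 0.277, 0.348 and 0 TPM at Atm-/- passage 8. Sox17, the third of them, had 4.07, 6.36 and 3.57 TPM at Atm+/+ passage 2, 0.0572, 0.0506 and 0.0907 TPM at passage 8, 2.64, 4.04 and 1.42 TPM after irradiation, 2.13, 3.64 and 4.44 TPM at Atm-/- passage 2 and 0.0402, 0.185 and 0.411 TPM at Atm-/- passage 8. Erg, the ETS factor of mature endothelium, had 4.99, 10.5 and 2.34 TPM at Atm+/+ passage 2, 0.285, 0.118 and 0.136 TPM at passage 8, 2.57, 3.62 and 1.13 TPM after irradiation, 3.84, 5.56 and 5.93 TPM at Atm-/- passage 2 and 0.107, 0.123 and 0.219 TPM at Atm-/- passage 8. Every passage 2 library was above every passage 8 library of its genotype for these 4 factors. Tal1, a factor of early blood and vessel development, had 70, 166 and 32 counts at Atm+/+ passage 2, 34, 47 and 13 counts after irradiation, 49, 77 and 83 counts at Atm-/- passage 2, 0, 0 and 1 counts at Atm+/+ passage 8 and 1, 0 and 0 counts at Atm-/- passage 8. Prox1, the factor that specifies lymphatic endothelium, was low throughout, with 29, 30 and 19 counts at Atm+/+ passage 2, 7, 14 and 6 counts after irradiation, 33, 59 and 51 counts at Atm-/- passage 2, 0, 4 and 2 counts at Atm+/+ passage 8 and 7, 12 and 8 counts at Atm-/- passage 8. Tal1 fell with passage in both genotypes, and Prox1 fell in Atm+/+ cells.

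Gimap4 and Gimap6 are GTPases of lymphocytes and endothelium, and their genes lie next to each other on chromosome 6 in a family whose members could share reads. Gimap4 had 16.8, 32.8 and 7.53 TPM at Atm+/+ passage 2, 2.88, 4.49 and 1.57 TPM after irradiation and 10.1, 14.6 and 19.6 TPM at Atm-/- passage 2. It had 0 counts in the 3 Atm+/+ passage 8 libraries and 5, 7 and 0 counts at Atm-/- passage 8, so it was at least 254-fold lower in Atm+/+ cells at passage 8. Gimap6 had 8.92, 21.3 and 4.43 TPM at Atm+/+ passage 2, 0, 0.0344 and 0.0616 TPM at passage 8, 4.36, 5.42 and 1.83 TPM after irradiation, 7.1, 11.3 and 11.9 TPM at Atm-/- passage 2 and 0.192, 0.299 and 0 TPM at Atm-/- passage 8. Both fell with passage in both genotypes, while the 10 lymphocyte marker genes summed to at most 4.47 TPM in any library.

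Because the members fell together, the stretch just upstream of their starts is shown for 4 of them, the largely endothelial members with the highest group mean among the 19 members that the RefSeq promoter table (GRCm38.p6) held. Each run is the 250 bases before the RefSeq start, read along the gene's strand, with the ETS motifs AGGAAG and CGGAAG and the SOX motif ACAATGG (searched on both strands) in capitals. The Cldn5 window lay at chr16:18776597-18776846 (plus strand), that of Tie1 at chr4:118489850-118490099 (minus strand), that of Emcn at chr3:137340828-137341077 (plus strand) and that of Robo4 at chr9:37401722-37401971 (plus strand). In GENCODE the Tie1 gene starts at 118490061, Emcn at 137341067 and Robo4 at 37401897, so part of each of these windows lies inside the GENCODE gene.
Cldn5: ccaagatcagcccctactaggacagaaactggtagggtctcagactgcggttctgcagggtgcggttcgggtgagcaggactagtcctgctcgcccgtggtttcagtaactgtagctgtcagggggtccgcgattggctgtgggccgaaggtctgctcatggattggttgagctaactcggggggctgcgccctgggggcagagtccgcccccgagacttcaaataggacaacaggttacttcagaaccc
Tie1: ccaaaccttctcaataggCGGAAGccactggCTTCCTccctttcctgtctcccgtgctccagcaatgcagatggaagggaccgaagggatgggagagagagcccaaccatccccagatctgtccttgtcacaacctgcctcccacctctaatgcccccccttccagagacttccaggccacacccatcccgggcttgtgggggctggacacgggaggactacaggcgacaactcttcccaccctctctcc
Emcn: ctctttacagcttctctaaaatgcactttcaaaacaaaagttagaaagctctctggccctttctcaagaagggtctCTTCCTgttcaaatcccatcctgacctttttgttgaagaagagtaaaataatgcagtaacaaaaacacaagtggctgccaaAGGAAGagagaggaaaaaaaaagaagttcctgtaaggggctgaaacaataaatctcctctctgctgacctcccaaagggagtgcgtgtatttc
Robo4: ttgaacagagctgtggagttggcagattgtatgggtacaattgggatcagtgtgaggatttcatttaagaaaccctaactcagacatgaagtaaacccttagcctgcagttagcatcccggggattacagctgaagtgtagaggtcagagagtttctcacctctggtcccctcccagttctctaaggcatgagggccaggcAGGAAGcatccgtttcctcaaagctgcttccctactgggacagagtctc
Tie1 held CGGAAG from base -232 to -227 and AGGAAG, as its reverse complement, from -219 to -214, counted back from the start. Emcn held AGGAAG on either strand, from -174 to -169 and from -93 to -88, and Robo4 held it from -49 to -44. Cldn5 held none of the 3 motifs in this window. Over all 32851 windows of that length, 29.5% held AGGAAG, 13.6% CGGAAG and 3.02% ACAATGG, and 39.2% held one of the ETS motifs. Of the 25 windows of the 19 members, 12 held an ETS motif and 0 held ACAATGG. A match of letters is a description and not evidence of binding.

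Irradiated cells were compared with both unirradiated Atm+/+ groups, and these comparisons share libraries with the passage comparison. Against passage 2, 25 of the 36 genes fell and none rose, where 16.5% of all genes fell and 11% rose (edgeR, adjusted p under 0.05). Leaving out irradiated replicate 1 or replicate 3 reduced the 25 to 11, and the share of all genes called in either direction from 27.5% to 14.4% or 14.8%. The median log2 fold change was -1.86 for the 36 genes and -0.01 for all genes. Against Atm+/+ passage 8, 28 of the 36 were higher in irradiated cells and none lower, where 4.3% of all genes were higher and 2.59% lower. That median was 4.37, or 3.89 with the genes without counts at passage 8 set to their bound, against -0.01 over all genes. The 11 genes that did not pass against passage 2 were Cdh5, Flt1, Tek, Eng, Vwf, Sox7, Sox17, Mmrn2, Calcrl, Ptprb and Esm1. Without the pair of libraries that stood apart, 32 genes fell and Eng rose against passage 2, where 46.3% of all genes were called in either direction, and 30 were higher and Calcrl lower against passage 8, where 25.5% were called.

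The mean irradiated level ran from 7.08% of the Atm+/+ passage 2 mean for Aplnr to 175% for Calcrl, with a median over the 36 genes of 34.8%. Calcrl had 37, 39 and 0 counts at Atm+/+ passage 2 and 34, 57 and 35 after irradiation. In the fit of 13 libraries its log2 fold change was -0.0021 (edgeR adjusted p = 0.996). Junction genes differed widely: Cldn5 stood at 17.8%, Icam2 at 17.9%, Pecam1 at 36.8%, Cdh5 at 55.5% and Ecscr at 67.9% of passage 2. Cldn5 and Icam2 had no irradiated library inside the passage 2 range, and their log2 fold changes were -2.93 ± 0.82 (SE, n = 3 per group; edgeR adjusted p = 0.0191) and -2.87 ± 0.39 (adjusted p = 0.000304). Cdh5 overlapped between the groups, since 3 of 3 irradiated libraries exceeded passage 2 replicate 3, and its difference did not pass the test (log2 fold change -1.10 ± 0.71, edgeR adjusted p = 0.259). Without the pair of libraries that stood apart, Cdh5 fell by 1.52 on the log2 scale (edgeR adjusted p = 0.0172). Among receptors, Ramp2 stood at 15.9%, Kdr at 21.2%, Tie1 at 28.9%, Flt4 at 52%, Flt1 at 83% and Eng at 148% of passage 2. The 3 irradiated Eng libraries were above all other 12 libraries in TPM, but the count-based difference from passage 2 was small and did not pass (log2 fold change 0.14 ± 0.15, edgeR adjusted p = 0.523). Of the transcription factors, Sox18 stood at 22.1%, Erg at 41%, Sox7 at 54.7% and Sox17 at 57.9%. Of 16 macrophage markers 2 fell against passage 2, and of 9 tested lung epithelial markers 7 fell, where 16.5% of all genes fell and 11% rose. Of 14 smooth muscle and pericyte markers 7 rose and 3 fell. Their part in the endothelial values was not tested.

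**Figure D3:**
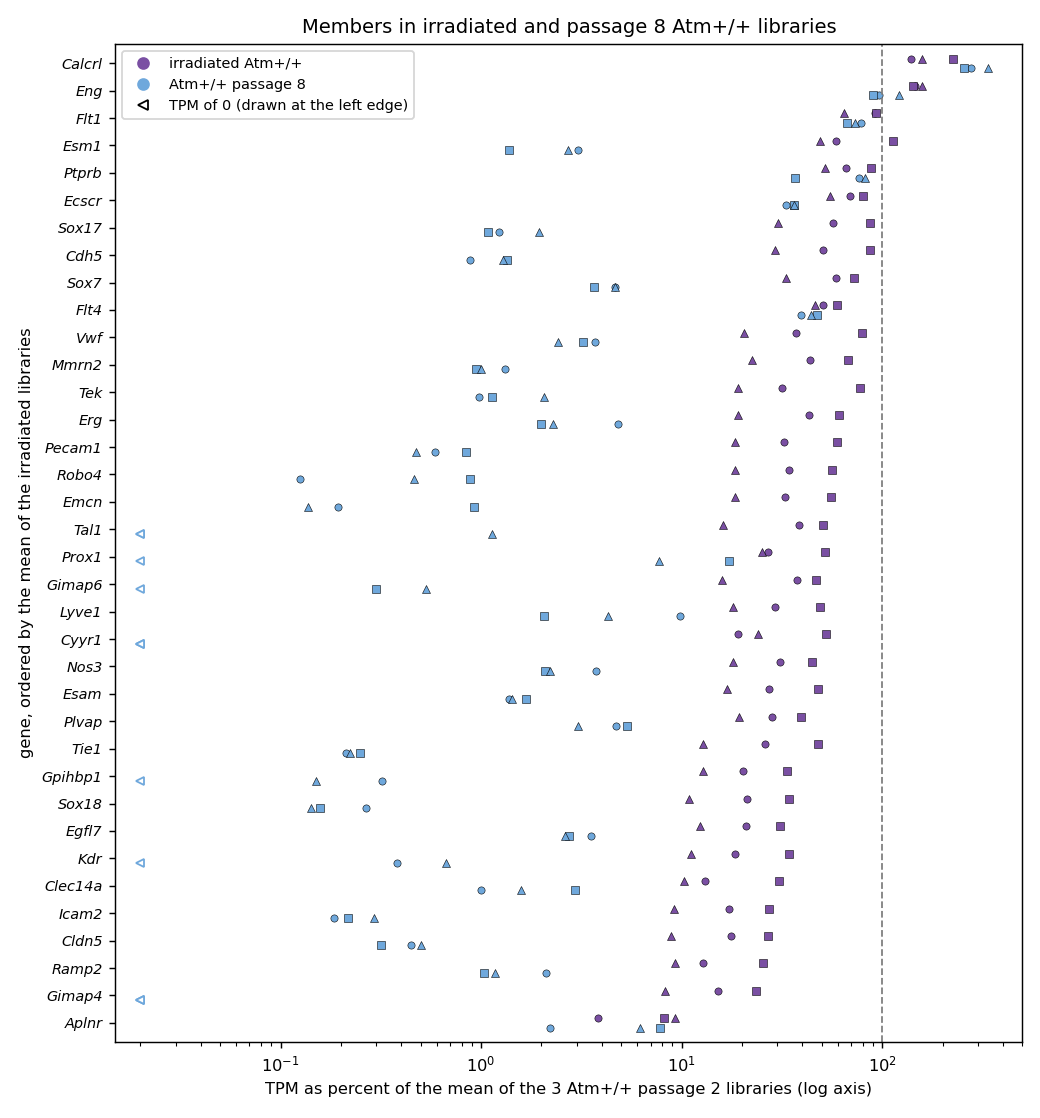
TPM of each gene in each irradiated (purple) and Atm+/+ passage 8 (blue) library as a percentage of the mean of the 3 Atm+/+ passage 2 libraries (log axis, dashed line at 100%); symbols are replicates and open triangles are values of 0. Irradiated libraries lie to the right of all passage 8 libraries except for Aplnr, Flt1, Flt4 and Ptprb, where the groups overlap, and Calcrl, where the irradiated libraries lie to the left.

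The genotypes were compared at each passage. At passage 2 none of the 36 genes passed the test (edgeR), where 0.969% of all genes did, and 3 had an unadjusted p under 0.05, namely Ramp2, Icam2 and Egfl7. DESeq2 called none either, where it called 5.05% of all genes. The log2 fold change of Atm-/- over Atm+/+ was negative for 31 of the 36 genes, with a median of -0.45 against 0.04 over all genes. Without Atm+/+ passage 2 replicate 2, the library with the highest levels, that median was -0.15 against 0.10 over all genes. Without replicate 3 of that group it was -0.66 against 0.02, and in the fit of 13 libraries it was -0.66 against 0.01. Gpihbp1 lay at the low end, with -1.13 ± 0.62 (SE, n = 3 per group; edgeR adjusted p = 0.365), and 1 of the 3 Atm-/- libraries lay inside the Atm+/+ range. Calcrl lay at the high end with 1.08 ± 0.76, from at most 80 counts in any passage 2 library. The macrophage list had values of the same sign, with a median log2 fold change of -1.06, 12 of its 16 genes at an unadjusted p under 0.05 and none passing after adjustment. Of 14 smooth muscle and pericyte markers, 5 were higher in Atm-/- cells. The part of both lists in the endothelial values was not tested.

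At passage 8, 11 of the 36 genes passed the test between genotypes, mostly on low counts. None of the 11 kept its call in every other fit tried. Atm-/- libraries were higher for 10 of the 36 genes, where 5.03% of all genes were higher, and lower for 1, Ecscr, where 4.29% were lower (edgeR, adjusted p under 0.05). The 10 were Pecam1, Kdr, Flt4, Tie1, Cldn5, Gpihbp1, Mmrn2, Ramp2, Icam2 and Esm1. Atm+/+ passage 8 counts were 6, 6 and 6 for Tie1, 9, 0 and 4 for Gpihbp1 and 4, 4 and 6 for Icam2. Flt4 had 356, 363 and 382 counts there. The median log2 fold change was 1.35 over the 36 genes and 1.16 with Gimap4 at its bound and Cyyr1, which had no count in either group, left out, against -0.08 over all genes. Esm1 showed the largest change of the 10, with 4.38 ± 0.74 (SE, n = 3 per group; edgeR adjusted p = 0.00376), and 3 of 3 Atm-/- libraries were above the Atm+/+ range. Icam2 and Ramp2 also lay above the Atm+/+ range in 3 of 3 libraries, with log2 fold changes of 2.94 ± 0.58 (edgeR adjusted p = 0.008) and 2.19 ± 0.41 (adjusted p = 0.00631). Flt4 did so as well (1.16 ± 0.25, edgeR adjusted p = 0.0129). Ecscr was below the Atm+/+ range in 3 of 3 libraries (-0.98 ± 0.18, edgeR adjusted p = 0.00546). For Kdr the Atm-/- counts were 78, 32 and 0 against 3, 0 and 5, so 1 Atm-/- library had none. For each of the 11 genes the Atm-/- passage 8 mean lay below the Atm-/- passage 2 mean. The count of 11 fell to 4 when Atm+/+ passage 8 replicate 1 or replicate 3 was left out, and the share of all genes called from 9.32% to 3.59% or 3.15%.

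The higher values came from different libraries for different genes. Replicate 2 of Atm-/- passage 8 had the highest level of its group for 16 of the 36 genes, among them Pecam1 and Icam2. Replicate 1 had it for Esm1, Flt4, Ptprb, Ramp2 and Kdr, among others. Replicate 3 had it for genes that included Cldn5, Gpihbp1, Tie1, Mmrn2 and Egfl7. Replicate 3 was also the library with fewest genes detected, and 14 of the 36 genes, among them Cdh5, Emcn, Sox18 and Kdr, had 0 counts there while Cldn5 had 30, 44 and 234 counts in replicates 1 to 3. Atm-/- passage 8 replicate 1 also stood high in mesothelial markers, which summed to 86.1 TPM there, 24.6 and 37.9 TPM in the other Atm-/- passage 8 libraries and 11.0 to 11.4 TPM at Atm+/+ passage 8. In Atm-/- passage 8 cells 9 of 12 fibroblast markers were lower and 2 higher than at Atm+/+ passage 8, led by Col1a2, Col1a1, Pdgfra and Fbln1, and 6 of 16 macrophage markers were lower and none higher. Of 14 smooth muscle and pericyte markers, 10 were lower and 1 was higher, where 4.29% of all genes were lower and 5.03% higher. The part of these lists in the endothelial values was not tested. The fit of 13 libraries called 7 genes higher and 2 lower, where 25% of all genes were called, and 6 of those 9 were among the 11 of the fit of 15. The 6 were Kdr, Flt4, Ramp2, Ecscr, Icam2 and Esm1, and Pecam1, Tie1, Cldn5, Gpihbp1 and Mmrn2 no longer passed. A fit of the 2 groups alone tested 23 members and called none of them, where 0.111% of all genes were called.

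**Figure D4:**
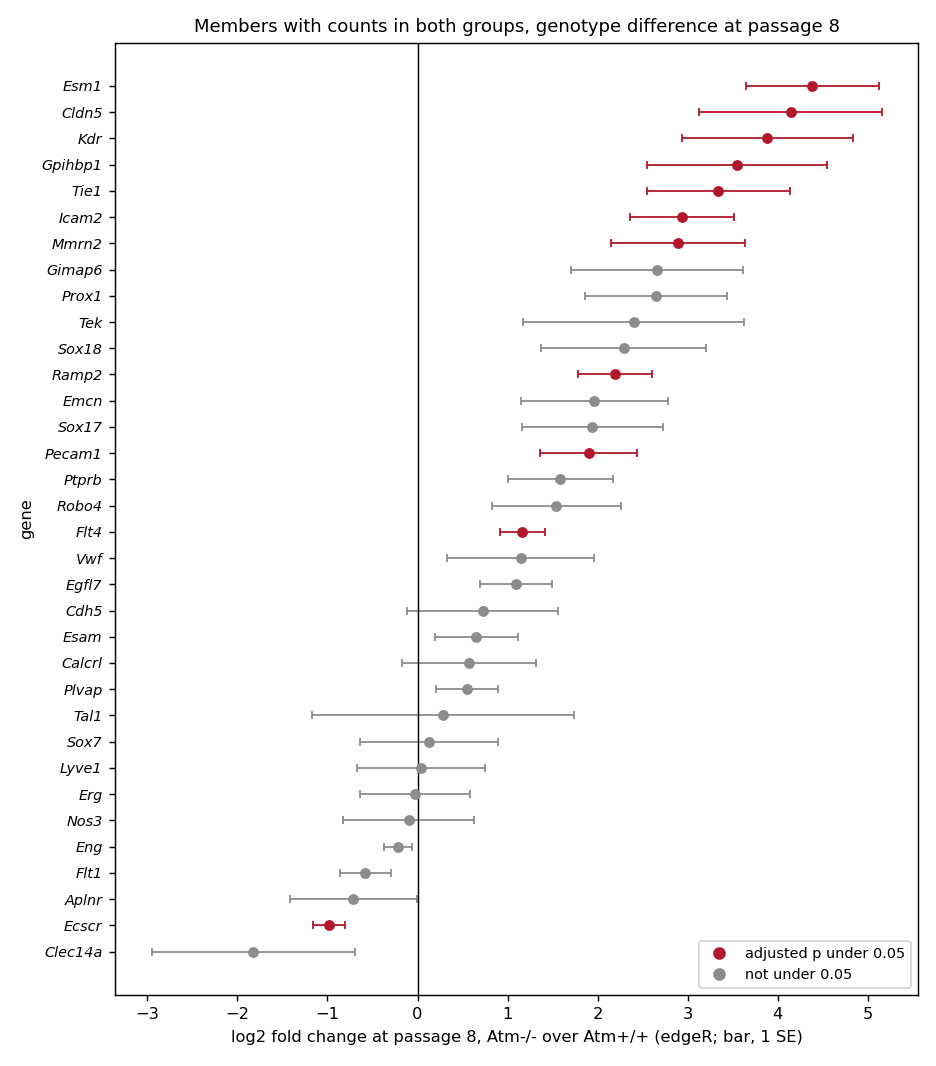
edgeR log2 fold change of Atm-/- over Atm+/+ libraries at passage 8 for the 34 genes with counts in both groups, with bars of 1 SE (n = 3 per group). Red points are the 11 genes with an adjusted p under 0.05, of which 10 are higher and Ecscr is lower in Atm-/- libraries.

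The change with passage was compared between genotypes by the difference of the passage effects. It was positive and passed the test for 8 of the 36 genes, where 2.46% of all genes had a higher and 1.97% a lower value (edgeR, adjusted p under 0.05). The genes were Kdr, Flt4, Tie1, Cldn5, Gpihbp1, Ramp2, Icam2 and Esm1. The fitted passage change in Atm-/- cells was closer to 0 than in Atm+/+ cells for each, and for Flt4 it was 0.05 ± 0.25 against -1.39 ± 0.25. The median difference was 1.74 log2 units over the 36 genes and the same over the 34 with counts in both passage 8 groups, against -0.14 over all genes. Icam2 had a difference of 3.78 ± 0.69 (SE; edgeR adjusted p = 0.0153) and Ramp2 one of 3.10 ± 0.54 (adjusted p = 0.0134). Leaving out Atm+/+ passage 8 replicate 3 ended the call for each of the 8 genes, with 0.424% of all genes then called, and the fit of 13 libraries kept 6 of them, without Tie1 and Gpihbp1, where 13.8% of all genes were called.

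Within the passage 2 and irradiated groups the members were high or low together from library to library. Atm+/+ passage 2 replicate 2 had the highest level of its group for 36 of 36 genes and replicate 3 the lowest for 35. Among Atm-/- passage 2 libraries, replicate 3 was highest for 34 and replicate 1 lowest for 36. Among irradiated libraries, replicate 2 was highest for 34 and replicate 3 lowest for 32. The ratio between these extreme libraries differed by gene, however: at Atm+/+ passage 2 it ran from 1.15 for Cldn5 to 26.2 for Tek, with a median of 3.10 over the 35 genes with counts in both libraries. At Atm-/- passage 2 it ran from 1.15 for Ecscr to 3.49 for Esm1 (median 1.85). Cldn5 and Cdh5 show the contrast, since the Cldn5 level was 3.25, 1.44 and 17.4 times the Cdh5 level in Atm+/+ passage 2 replicates 1 to 3, 1.34 to 2.29 times at Atm-/- passage 2 and 0.817 to 0.944 times in irradiated libraries. At passage 2 the fibroblast list shared this order, with sums of 9696, 13049 and 5826 TPM in Atm+/+ passage 2 replicates 1 to 3 and 8445, 9881 and 11046 TPM at Atm-/- passage 2. Irradiated fibroblast sums, 10572, 9729 and 10104 TPM, did not share it. Macrophage sums at Atm+/+ passage 2 were 3111, 2890 and 3416 TPM, in another order. The median member stood at 40.4% in Atm+/+ passage 2 replicate 3 relative to the mean of the other 2.

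Most further endothelial genes outside the list moved in the same direction with passage. Their summed level overlapped between passages in Atm+/+ cells, with 250.7 to 579.9 TPM at passage 2 and 229.7 to 301.5 TPM at passage 8. In Atm-/- cells it did not, with 303.4 to 423.0 TPM and then 152.2 to 239.6 TPM. Irradiated libraries had 389.8 to 455.6 TPM, inside the Atm+/+ passage 2 range. Of 32 such genes 31 were tested, and 23 fell and 2 rose in Atm+/+ cells, while 20 fell and 1 rose in Atm-/- cells (edgeR, adjusted p under 0.05). Over all genes 13.5% fell and 9.8% rose in Atm+/+ cells, and 8.25% fell and 4.76% rose in Atm-/- cells. The 4 with the lowest p in Atm+/+ cells were Car4, a carbonic anhydrase of lung capillaries, Cd34, a sialomucin of endothelium and progenitor cells, Hspa12b, an endothelial chaperone, and Notch4, an endothelial Notch receptor. Log2 fold changes were -6.71 for Car4, -6.52 for Cd34 and -4.56 for Notch4. Hspa12b fell less, from 12.6, 18.6 and 9.25 TPM at Atm+/+ passage 2 to 3.61, 3.89 and 3.88 TPM at passage 8. Car4 had 9.83, 18.9 and 9.13 TPM at Atm+/+ passage 2, 0.0738, 0.0871 and 0.234 TPM at passage 8 and 0.426, 0.708 and 0.638 TPM after irradiation, so its groups did not overlap. After irradiation 15 fell and 1, Thbd (thrombomodulin, an anticoagulant receptor), rose against passage 2, and 15 were higher and 1 lower than at passage 8. The shares of all genes were 16.5% and 11% against passage 2, and 4.3% higher and 2.59% lower against passage 8. Thbd had 14.2 to 63.4 TPM at Atm+/+ passage 2 and 164.4 to 179.8 TPM after irradiation. At passage 8, Cd34, Hspa12b and Myct1 were higher and S1pr1 lower in Atm-/- than in Atm+/+ libraries, and none of the 31 differed between genotypes at passage 2.

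The ligands and partners of the member receptors are made by many cell types. Of 22 such genes 18 were tested, and 5 rose and 4 fell with passage in Atm+/+ cells, 2 rose and 5 fell in Atm-/- cells, and 5 rose and 5 fell after irradiation against passage 2. Over all genes, 9.8% rose and 13.5% fell, 4.76% rose and 8.25% fell, and 11% rose and 16.5% fell in these comparisons. Vegfa, the main ligand of Kdr and Flt1, had 80.5, 144.8 and 44.5 TPM at Atm+/+ passage 2, 301.9, 261.4 and 392.1 TPM at passage 8, and 492.6, 483.3 and 421.9 TPM after irradiation. It rose by 1.69 log2 units with passage in Atm+/+ cells and by 2.04 after irradiation (edgeR adjusted p of 0.000459 and 0.000233). In Atm-/- cells it had 156.1, 203.8 and 187.9 TPM at passage 2 and 75.1, 145.7 and 67.3 TPM at passage 8, and the difference of its passage effects was -2.30 (adjusted p = 0.0104, edgeR). Pgf, placental growth factor and a ligand of Flt1, fell with passage in both genotypes, by 3.86 log2 units in Atm+/+ and by 1.91 in Atm-/- cells. Adm, the adrenomedullin ligand of the Calcrl and Ramp2 pair, rose by 2.76 with passage in Atm+/+ cells and by 2.25 after irradiation. Edn1 (endothelin 1), whose receptors are not among the members, rose by 1.46 and 1.68 in these comparisons.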

How the data were processed

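Bulk RNA was measured in 15 libraries, grouped by their titles into 5 groups of 3. The authors deposited raw read counts per gene, made with featureCounts and SAMtools 1.3.1 on mm10 per the submitters' processing notes. For the aligner, strandedness and annotation release, the sources used here name none. The authors also deposited TPM values, which equalled length-corrected counts scaled to a common total for 100% of 149835 values checked, within 2%. Of 48440 gene identifiers, 48058 were paired with a symbol, and all 36 members matched.

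Counts were tested with edgeR 4.0.16 in R 4.3.3 (quasi-likelihood, robust, TMM, filterByExpr) over all 15 libraries, and p-values were adjusted by Benjamini-Hochberg over the 18167 genes tested, with a threshold of 0.05. Standard errors were derived from the fold change and its F statistic. The procedure was tested on simulated data. P-values rest on a spread between libraries within groups that was estimated over all 5 groups together. Libraries of different groups were treated as independent, although they may come from the same strains. Alternatives were DESeq2 1.42.0, limma 3.58.1 on log2(TPM + 1) and log2(TPM + 0.1), other filters, the groups compared alone, a replicate block and leaving out each library. Fits of 13 libraries left out the pair that stood apart. Library totals of 13645592 to 39210772 counts set the precision, and 3 counts were taken as the limit of detection. Gene positions and exon overlaps came from GENCODE vM21 (GRCm38). Figures were drawn with matplotlib 3.10.9.

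The members and lists were chosen with earlier results of these data known. Values in every library are given for members called in any comparison or reaching a group mean of 1 TPM, and at most 4 genes per other list and comparison are named, those with the lowest p.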

Additional observations from a re-analysis of the deposited data

Results flagged for a closer look

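The change with passage differed between the genotypes for 8 of the 36 genes, by the edgeR test of the difference itself (Atm-/- minus Atm+/+, log2). The difference was 5.23 for Cldn5, 4.68 for Gpihbp1, 4.61 for Esm1, 4.47 for Kdr, 3.88 for Tie1, 3.78 for Icam2, 3.1 for Ramp2 and 1.44 for Flt4. Each was positive. For Flt4 the fitted passage change in Atm-/- cells was 0.05, so no fall was seen there. None of the 8 kept its call under every alternative tried. In the fit of 13 libraries the difference was 2.43 for Cldn5, 3.49 for Icam2, 5.16 for Esm1 and 5.07 for Kdr. It was 3.11 for Ramp2 and 1.58 for Flt4, while Gpihbp1 (3.68) and Tie1 (3.21) no longer passed. Cldn5 had 30, 44 and 234 counts at Atm-/- passage 8. At Atm+/+ passage 8 Kdr had 3, 0 and 5 counts and Gpihbp1 9, 0 and 4.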

How the results depend on the processing

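Of the 32 genes that fell with passage in Atm+/+ cells, 31 were called in each alternative that tested them, and the count ran from 28, of 32 members tested under a stricter filter, to 33. By the same measure, over the alternatives that tested a gene, it was 22 of 29 in Atm-/- cells, 19 of 28 for irradiated cells against passage 8 and 8 of 25 against passage 2. No change of sign was recorded for a called value. At passage 8, the 11 genes that differed between genotypes (9.32% of all genes called) became 17 with DESeq2 (19.8%), 7 without a filter on low counts (4.06%), 0 with the groups compared alone (0.111%), 1 of 35 with limma on log2(TPM + 1), a smaller share than the 7.92% of all genes, and 4 on log2(TPM + 0.1) (7.07%). Leaving out 1 library gave 4 to 14 (3.15% to 18.3%). None of the 11 was called in every alternative that tested it. For the difference of passage effects, the count of 8 (4.43%) became 15 with DESeq2 (19.9%), 3 without a filter (1.69%), 2 with the groups alone (0.673%), 0 and 2 with limma (4.82% and 2.14%), and 0 to 11 with 1 library left out (0.424% to 24.7%). With irradiation against passage 2, the count of 25 (27.5%) became 13 with limma on log2(TPM + 0.1) (26.4%) and 11 to 27 with 1 library left out (14.4% to 44.4%). The cause was not tested. Deviations from the group means correlated between same-numbered libraries by -0.202 to 0.219. With 3 libraries per group, 2 of them in all standing apart, this cannot decide whether the numbers pair the samples. With a replicate block the difference of passage effects gave 4 genes (0.793%) and the genotype comparison at passage 8 gave 10 (8.27%). At passage 2, no member was called between genotypes under any alternative, where 0.233% to 9.58% of all genes were called. Limma on TPM moved the median of all genes by over 0.1 in each comparison. Low counts at passage 8 limit the precision of the genotype comparison there.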
